A study of Homo sapiens with 12 samples.

Results

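Described here are 37 genes of the cell's responses to amino acid shortage and to unfolded protein, among 28512 gene symbols in the files. They were chosen by symbol: 21 genes of the ATF4 branch (9 stress regulators, 6 enzymes of serine, one-carbon and asparagine synthesis, and 6 amino acid transporters) and 16 genes of the chaperone branch (3 sensors of the endoplasmic reticulum (ER) and the transcription factor XBP1, and 12 chaperones and degradation factors of the ER). Polyadenylated RNA was sequenced from SUM159, MDAMB231 and HCC1806, established lines of triple-negative breast cancer. Each line was kept for 72 h with DMSO, with JQ1, with GSK2801 at 10 µM, or with both compounds, and each line and treatment gave 1 library, 12 in all. JQ1, which blocks the acetyl-lysine pockets of the BET proteins, was used at 300 nM in SUM159, at 100 nM in MDAMB231 and at 500 nM in HCC1806. GSK2801 binds the bromodomains of BAZ2A and BAZ2B. The medium of HCC1806 was RPMI 1640 plus serum. SUM159 and MDAMB231 were kept in DMEM/F12 plus serum, insulin and hydrocortisone. Line, medium and JQ1 dose therefore cannot be told apart. Groups of 3 values below are always in the order SUM159, MDAMB231, HCC1806.

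When amino acids run short or unfolded protein builds up in the ER, kinases such as PERK (gene EIF2AK3) phosphorylate the translation factor eIF2. General translation then drops while the ATF4 message is translated, and ATF4, often with C/EBP partners, switches on genes for amino acid import, amino acid synthesis and tRNA charging. The ER has further sensors: IRE1 (gene ERN1) splices the XBP1 message, and ATF6 is cut to release a transcription factor. Both raise ER chaperones and the factors that retrieve misfolded proteins for degradation. ATF4 protein and XBP1 splicing are not read by these values, which are RNA levels per gene.

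The values are taken, from their own pattern, as estimated read numbers scaled to the same upper quartile, 1663.93, in each library. Depth was 24200000 to 46800000 estimated reads. Of the 28512 genes, 14232 with a mean of at least 10 were tested, all 37 members among them. HEXIM1, a gene that rises when BET proteins are blocked, stood at 2928, 3018 and 2510.0 with DMSO and at 7082, 6483 and 6269.6 with JQ1, and its JQ1 change was 1.23 ± 0.08, adjusted p = 0.000704. Of the markers of breast epithelium, EPCAM and CDH1 reached 11492 or more in HCC1806. KRT8, KRT18, KRT19 and KRT5 were at 7880 or more there, while KRT14 was at 91.6 or less and VIM at 173 or less. In SUM159 they were at 33.2 or less, beside VIM values of 90380.3 to 142226. The keratins of that list were not all low in SUM159. KRT18 stood there at 4882 to 7329 and KRT8 at 1075 to 1752, while KRT19, KRT5 and KRT14 were at 97.3 or less. In MDAMB231 EPCAM and CDH1 were at 375 or less, beside VIM values of 91480 to 140589. KRT18 stood there at 10483 to 16385, KRT19 at 2986 to 13965 and KRT8 at 2430 to 5271, while KRT5 and KRT14 were at 16.0 or less. The estrogen receptor gene ESR1 was at 138 or less and PGR at 12.1 or less throughout. ERBB2 was at 1749 to 6456. Of 8 markers of blood and endothelial cells, 3 passed the filter on low values. Their summed level was 10.3 to 56.6 in MDAMB231 and HCC1806. In SUM159 the sum was 1245 and 1341 without JQ1 and 252 and 350 with it. The 8 markers of fibroblasts and fat cells, 6 of them past the filter, summed to 87.4 to 469 in MDAMB231 and HCC1806. In SUM159 they summed to 53896 and 44320 without JQ1 and to 20535 and 12002 with it, mostly COL1A1. These SUM159 sums moved with JQ1 together with the members below, and their part in the results was not tested. As in all bulk RNA, fewer cells of a type and less RNA per cell cannot be told apart.

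Promoter windows of the members were searched for control elements of both pathways, and the stretches that hold them are printed first. Since the members were chosen by symbol as genes of these pathways, the counts per branch are a description and not a test. RefSeq windows (GRCh38.p14) from 250 bases before to 50 bases after a start site were at hand for 33 of the 37 members. NUPR1, PSPH, SHMT2 and SLC7A11 had none. The C/EBP-ATF response element, through which ATF4 acts with a C/EBP partner, was searched as TGATGNAA on both strands. It occurs in 3.62% of all 35116 windows, or 4.46% of the 27305 genes with one. Of the ATF4 branch, 6 of 17 genes held it, and of the chaperone branch HERPUD1 alone of 16. Capitals mark the element, with up to 11 bases on each side, read 5′ to 3′ on the gene's strand.
ASNS, chr7:97872458-97872487, minus strand: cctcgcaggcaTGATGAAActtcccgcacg
CEBPG, chr19:33374060-33374089, plus strand: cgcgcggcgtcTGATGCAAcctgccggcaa
CHAC1, chr15:40953251-40953280, plus strand: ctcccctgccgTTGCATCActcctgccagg
HERPUD1, chr16:56931955-56931984, plus strand: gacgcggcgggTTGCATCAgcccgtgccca
SLC1A5, chr19:46784893-46784922, minus strand: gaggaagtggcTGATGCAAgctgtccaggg
SLC3A2, chr11:62881725-62881748, plus strand: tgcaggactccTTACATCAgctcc
SLC7A1, chr13:29595663-29595692, minus strand: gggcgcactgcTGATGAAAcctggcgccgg
In CHAC1, SLC3A2 and HERPUD1 the capitals are the reverse complement of the searched letters. The first base of the element lay at base -42 in CEBPG, -68 in ASNS, -97 in SLC1A5, -176 in HERPUD1 and -209 in CHAC1, counted from the start site. In SLC7A1 it lay at base 8 and in SLC3A2 at base 38 after the start.

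The ER stress element, bound by ATF6 together with NF-Y, was searched on both strands as CCAAT followed by any 9 bases and CCACG. It is far rarer, in 0.0769% of all windows and 25 of the 27305 genes. No ATF4-branch gene held it, while 6 of the 16 chaperone-branch genes did, HSP90B1 with 2 copies. No member's window held both elements. Capitals mark the element, with up to 20 bases on each side.
CALR, chr19:12938364-12938422, plus strand: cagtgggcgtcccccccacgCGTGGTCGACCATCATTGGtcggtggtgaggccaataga
CANX, chr5:179698758-179698816, plus strand: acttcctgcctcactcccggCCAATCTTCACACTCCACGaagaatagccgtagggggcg
HSP90B1, chr12:103930196-103930254, plus strand: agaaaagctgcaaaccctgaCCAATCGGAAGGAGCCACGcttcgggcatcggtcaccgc
HSP90B1, chr12:103930301-103930359, plus strand: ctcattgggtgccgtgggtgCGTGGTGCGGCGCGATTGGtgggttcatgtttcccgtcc
HSPA5, chr9:125241371-125241429, minus strand: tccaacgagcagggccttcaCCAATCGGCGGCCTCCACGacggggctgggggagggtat
PDIA6, chr2:10812833-10812891, minus strand: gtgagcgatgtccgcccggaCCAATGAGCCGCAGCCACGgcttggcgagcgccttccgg
XBP1, chr22:28800583-28800641, minus strand: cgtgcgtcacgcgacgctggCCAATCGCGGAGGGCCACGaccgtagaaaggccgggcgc
In CALR and in the second HSP90B1 stretch the element is in reverse orientation. A match describes the letters only and is not evidence of binding. With JQ1, SLC7A1 was the 1 gene of the 6 ATF4-branch genes with the C/EBP-ATF element that passed the test, and it fell. Of the 6 with the ER stress element, CANX and XBP1 fell and the other 4 (CALR, HSP90B1, HSPA5 and PDIA6) did not pass. Of all tested genes 13.1% fell, and counts out of 6 genes do not set either group apart from that share.

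JQ1 lowered part of the ATF4 branch. ATF4 itself, the pseudokinase TRIB3, the stress gene NUPR1, the enzymes PSAT1 and SHMT2, and the transporters SLC7A11 and SLC7A1 fell. XBP1, CANX and SDF2L1 fell in the chaperone branch, and ERN1 rose. In counts, 7 of 21 ATF4-branch genes fell and none rose, and 3 of 16 chaperone-branch genes fell and 1 rose (limma, line as a block, adjusted over all 14232 genes, threshold 0.05). Over all tested genes 13.1% fell and 9.52% rose. The median log2 change was -0.43 in the ATF4 branch, -0.12 in the chaperone branch and -0.08 over all tested genes. The direction was lower in 3 of 3 lines for 13 of the 21 and for 8 of the 16, beside 28.8% of all tested genes. As raw values, all 6 libraries with JQ1 lay below all 6 without it for ATF4, TRIB3, NUPR1 and SHMT2, against 3.7% of all tested genes. These p-values measure the spread between the 3 lines, with no repeat culture of a line. Without SUM159, 3 of the 11 calls were kept (SLC7A1, TRIB3, SDF2L1), without MDAMB231 8, and without HCC1806 1 (SLC7A1). Of all tested genes, the same 3 fits gave 865, 921 and 227 falls, beside 1868 with all lines. They gave 778, 611 and 175 rises, beside 1355 with all lines. No call was kept without the line block or in a test against a 1.5-fold change. Without the block 0 of the 14232 tested genes were called. Against a 1.5-fold change 65 of all tested genes rose and 55 fell. The loss of these calls is therefore not particular to the members. Over all alternatives besides the missing block, the calls of PSAT1, SHMT2, ERN1 and CANX were lost under 8, 7, 7 and 6 of them, and the other calls under 1 to 4.

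**Figure D1:**
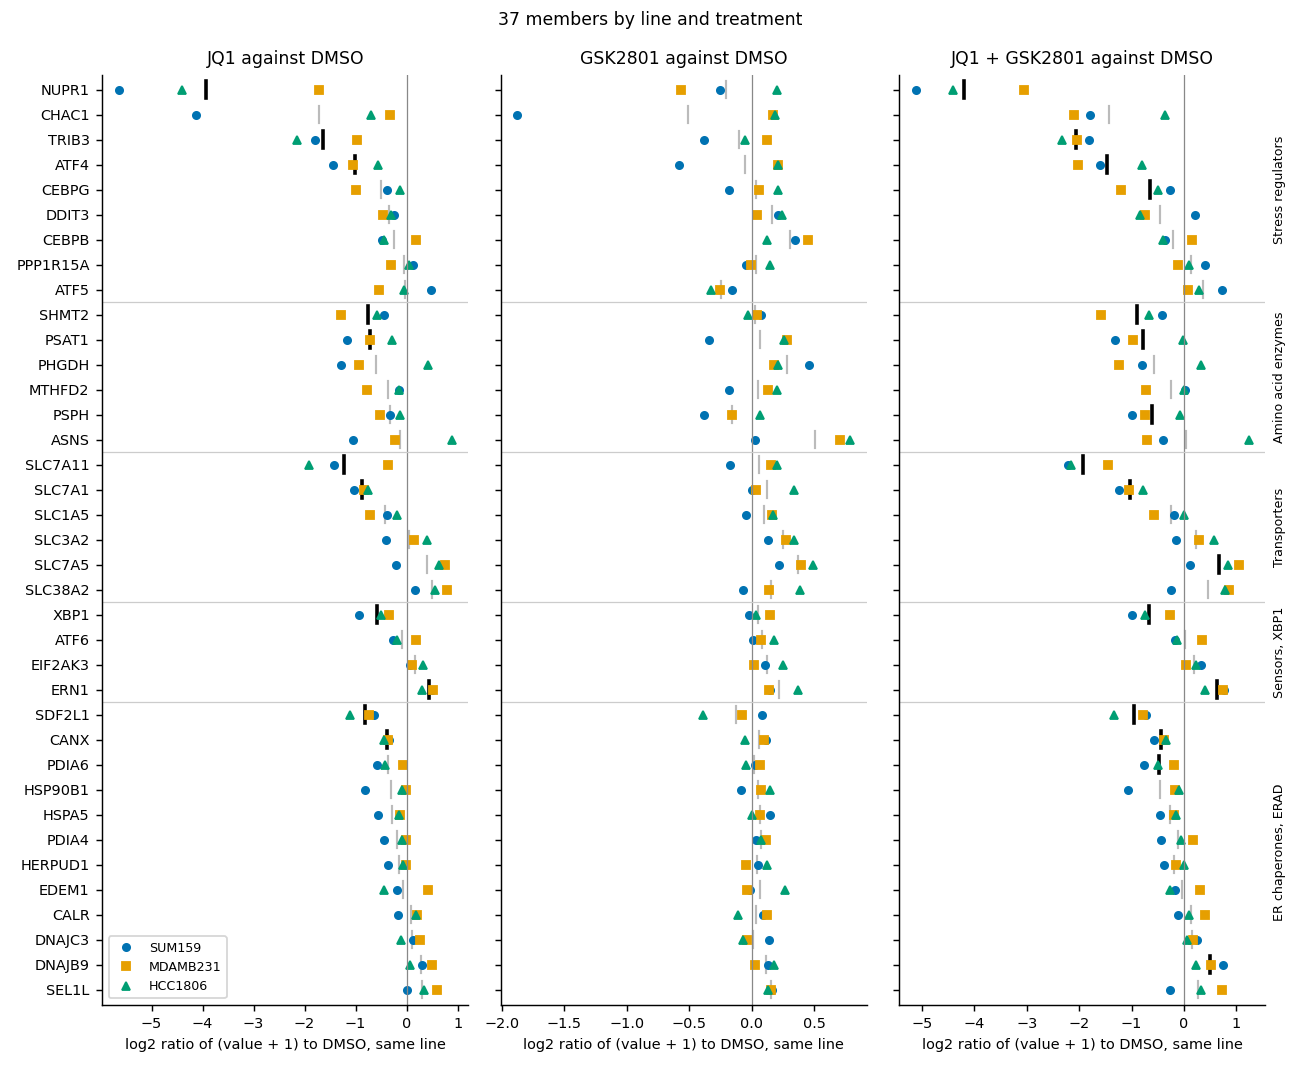
Log2 ratio to the DMSO library of the same line for the 37 members (rows, grouped by role) with JQ1, GSK2801 and both. Symbols are lines, the short vertical bars are the fitted means (black where the adjusted p was below 0.05, grey otherwise), and the axis of the GSK2801 panel is narrower. NUPR1, TRIB3, ATF4, SLC7A11 and SLC7A1 lie left of 0 in all 3 lines with JQ1 and with both.

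Among the 9 stress regulators, 3 fell with JQ1, ATF4, TRIB3 and NUPR1, beside 13.1% of all tested genes. ATF4 (chr22:39519695-39522685, GRCh38) had values of 7345, 6223 and 5288 with DMSO and 2687, 3017 and 3577 with JQ1. With GSK2801 they were 4916, 7209 and 6133, and with both compounds 2416, 1531 and 3019.6. The highest value with JQ1, 3577 in HCC1806, lies below the lowest without it, 4916 in SUM159 with GSK2801. The JQ1 change of ATF4 was -1.02 ± 0.25, adjusted p = 0.0197. TRIB3, a target of ATF4 that restrains it in turn, went from 1654, 1622 and 2079 with DMSO to 478, 824 and 466 with JQ1. It was at 1272, 1763 and 1999 with GSK2801 and 471, 395 and 414 with both. All 6 libraries with JQ1 were below the other 6, and with both compounds the 3 lines came to within a narrow range. The JQ1 change of TRIB3 was -1.64 ± 0.23, adjusted p = 0.00264. NUPR1, a small stress-induced chromatin protein, was highest in SUM159 under every treatment and low in the other lines. Its values were 525, 29.4 and 20.3 with DMSO and 9.56, 8.22 and 0 with JQ1, then 441, 19.5 and 23.4 with GSK2801 and 14.2, 2.67 and 0 with both. HCC1806 listed NUPR1 at 0 in both libraries with JQ1, so no fold is given for that line, and the fitted change depends on the pseudocount. It was -3.92 ± 0.74, adjusted p = 0.00741 with a pseudocount of 1 and -2.50 (adjusted p = 0.0377) with 10.

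The bZIP partners CEBPG and CEBPB and the ATF4-like factor ATF5 did not pass with JQ1 alone. CEBPG had values of 1330.1, 2466 and 1405 with DMSO, 1017, 1233 and 1287 with JQ1, 1173, 2569 and 1628 with GSK2801 and 1102, 1074 and 998 with both. MDAMB231 had the highest level without JQ1 and came down to the level of the other lines with it. CEBPG fell with both compounds against DMSO (-0.65 ± 0.21, adjusted p = 0.0423) but lost that call under 9 alternatives besides the missing block, and the JQ1 value was -0.50 ± 0.21, adjusted p = 0.122. CEBPB stood at 5434, 3245 and 2293 with DMSO, 3873, 3702 and 1692 with JQ1, 6887, 4434 and 2493 with GSK2801 and 4210.0, 3621 and 1735 with both. It fell with both compounds against GSK2801 (-0.51 ± 0.14, adjusted p = 0.0253) and did not pass against DMSO (-0.20 ± 0.14, adjusted p = 0.282). ATF5 stood at 838, 1155 and 833 with DMSO, 1167, 796 and 803 with JQ1, 749, 969.7 and 664 with GSK2801 and 1392, 1211 and 1018 with both. It was the 1 ATF4-branch gene that rose between GSK2801 and both compounds (0.61 ± 0.18, adjusted p = 0.0347), although its exons share 626 bases with NUP62 on the other strand.

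The remaining regulators passed in no contrast. DDIT3 (CHOP, a pro-death factor downstream of ATF4) ranged from 112 to 635, and its JQ1 value was -0.34 ± 0.23, adjusted p = 0.318. Its exons share 355 bases with MARS on the opposite strand, and MARS fell (below). PPP1R15A (GADD34, which brings a phosphatase to eIF2) had a JQ1 value of -0.05 ± 0.13, adjusted p = 0.813. CHAC1, which breaks down glutathione and is a sensitive ATF4 target, had the JQ1 ratio that varied most between lines after that of NUPR1. Its values were 128, 341 and 148 with DMSO, 6.37, 270.2 and 91.1 with JQ1, 34.1, 383 and 169 with GSK2801 and 35.9, 78.7 and 115 with both. In SUM159 the value with both compounds was higher than that with JQ1 alone and about that with GSK2801. The log2 ratios of CHAC1 with JQ1 were -4.13, -0.34 and -0.70, and the mean of -1.72 ± 0.72 did not pass (adjusted p = 0.115).

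Of the 6 biosynthetic enzymes, PSAT1 and SHMT2 fell with JQ1, and the other 4 did not pass. Of all tested genes 13.1% fell, and a count out of 6 genes does not set the list apart from that share. The calls of PSAT1 and SHMT2 were both lost after TMM rescaling of the libraries and without the variance trend. PSAT1, the transaminase of the serine pathway, had values of 3267, 4468 and 6622 with DMSO and 1452, 2716 and 5452 with JQ1. With GSK2801 they were 2574, 5435 and 7918, and with both 1307, 2268 and 6503. SUM159 and MDAMB231 were clearly lower with JQ1, and HCC1806 stayed the highest line in every treatment. The change of PSAT1 was -0.72 ± 0.22, adjusted p = 0.0426. SHMT2, which hands the serine carbon to folate in mitochondria, went from 6788, 7297 and 5266 with DMSO to 5015, 3006 and 3518 with JQ1. It was at 7142, 7500.1 and 5163 with GSK2801 and 5073, 2442 and 3317 with both, and the libraries with and without JQ1 did not overlap. SHMT2 changed by -0.77 ± 0.22, adjusted p = 0.0363, with the lowest ratio in MDAMB231.

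PHGDH, the entry enzyme of serine synthesis, had values of 964, 1297 and 3316 with DMSO, 396, 682 and 4426 with JQ1, 1326, 1466 and 3838 with GSK2801 and 556, 552 and 4154 with both. It was lower with JQ1 in SUM159 and MDAMB231 and higher in HCC1806, so that the mean over lines did not pass (-0.60 ± 0.36, adjusted p = 0.259). ASNS, which makes asparagine, stood at 2061, 1234 and 629 with DMSO, 993, 1053 and 1163 with JQ1, 2097, 2018 and 1087 with GSK2801 and 1559, 758 and 1486 with both. HCC1806 had the lowest ASNS value of the DMSO libraries, and all 3 of its treated libraries were above it. The ASNS mean was -0.13 ± 0.38, adjusted p = 0.827. PSPH, the last step of serine synthesis, had values of 837, 749 and 433 with DMSO, 670.1, 524 and 393 with JQ1, 641, 673 and 452 with GSK2801 and 422, 446 and 412 with both. It passed with both compounds against DMSO (-0.60 ± 0.18, adjusted p = 0.0269), with the fall in SUM159 and MDAMB231 and little difference in HCC1806. MTHFD2, the next mitochondrial folate enzyme, passed in no contrast, with a JQ1 value of -0.36 ± 0.19, adjusted p = 0.202.

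The 6 transporters split. SLC7A11, the cystine importer of system xc-, had values of 4692, 9519.5 and 9930.0 with DMSO and 1738, 7399.6 and 2649 with JQ1. With GSK2801 they were 4162, 10597 and 11409, and with both compounds 1017, 3499 and 2226. With JQ1 alone MDAMB231 was the least lowered line, while with both compounds all 3 lines were lower than with any other treatment. SLC7A11 changed by -1.23 ± 0.27, adjusted p = 0.0124 with JQ1 and by -1.94 ± 0.27, adjusted p = 0.00102 with both. SLC7A1, the arginine and lysine importer CAT1, fell by a like amount in each line. Its values were 5886, 9015 and 10746 with DMSO, 2882, 5082 and 6356 with JQ1, 5902, 9253 and 13567 with GSK2801 and 2485, 4373 and 6225 with both. Its 3 log2 ratios with JQ1 were -1.03, -0.83 and -0.76, for a mean of -0.87 ± 0.10, adjusted p = 0.00137.

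SLC7A5 (LAT1, the large neutral amino acid exchanger) went the other way. It stood at 10787, 15516 and 181848 with DMSO, 9384, 25988 and 281143 with JQ1, 12572, 20388 and 255164 with GSK2801 and 11655, 32176 and 326196 with both. HCC1806 was far above the other lines, and SUM159 showed little difference between treatments. SLC7A5 rose with both compounds (0.67 ± 0.20, adjusted p = 0.0273) and did not pass with JQ1 alone (0.39 ± 0.20, adjusted p = 0.18). SLC3A2, the heavy chain that carries SLC7A5 and SLC7A11 to the membrane, had values of 3865, 5212 and 40977 with DMSO, 2909.7, 5751 and 53839 with JQ1, 4239, 6285 and 51787 with GSK2801 and 3498, 6347 and 60633 with both. Its mean JQ1 change was 0.04 ± 0.15, adjusted p = 0.861, with HCC1806 above its DMSO value in all 3 treated libraries. The glutamine transporters SLC1A5 and SLC38A2 passed in no contrast. SLC1A5 was lower with JQ1 in 3 of 3 lines (-0.43 ± 0.14, adjusted p = 0.0526), and SLC38A2 was higher in 3 of 3 (0.50 ± 0.20, adjusted p = 0.104).

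**Figure D2:**
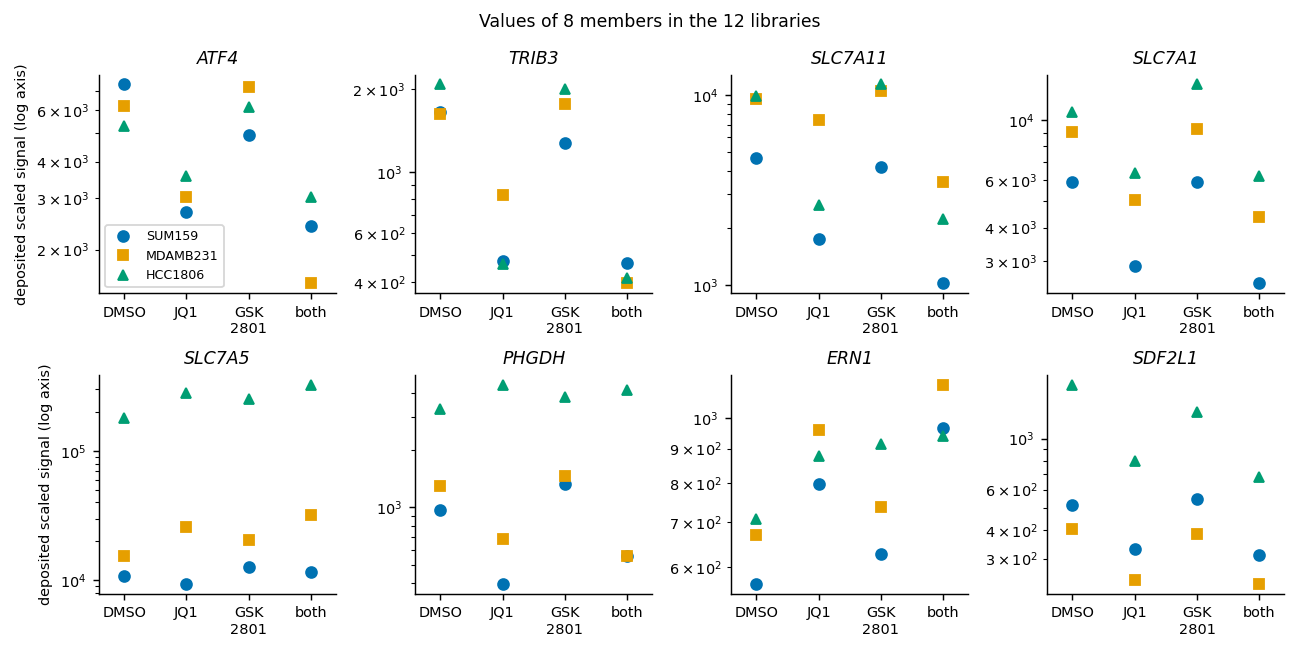
Deposited scaled signal (log axis, each panel with its own range) of 8 members in the 12 libraries, by treatment, with 1 symbol per line and no error bars since each point is 1 library. The libraries with JQ1 lie below the others for ATF4 and TRIB3, SLC7A5 is highest in HCC1806, and PHGDH goes opposite ways in HCC1806 and the other lines.

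In the chaperone branch the sensors and XBP1 moved unequally. XBP1 had values of 4007, 1981 and 5037 with DMSO, 2103, 1567 and 3571 with JQ1, 3946, 2187 and 5150.3 with GSK2801 and 2027, 1656 and 3016 with both. Within each line both libraries with JQ1 were below both without it. XBP1 fell by 0.59 ± 0.14, adjusted p = 0.0179 on the log2 scale. ERN1, the IRE1 kinase and nuclease that splices XBP1, had values of 567, 669.9 and 707 with DMSO, 796, 960.5 and 877 with JQ1, 628, 738 and 914 with GSK2801 and 968, 1119.8 and 939 with both. It was higher with JQ1 in every line and rose by 0.44 ± 0.13, adjusted p = 0.0401, the 1 member that rose with JQ1. ATF6 (-0.09 ± 0.13, adjusted p = 0.638) and the PERK gene EIF2AK3 (0.17 ± 0.10, adjusted p = 0.278) did not pass. The EIF2AK3 values of all 12 libraries lay between 706 and 1373, and those of ATF6 between 3513 and 5469.9.

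Of the 12 ER chaperones and degradation factors, SDF2L1 and CANX fell with JQ1 and 10 did not pass. This count is near the 13.1% of all tested genes that fell, so nothing is read from it about the list. SDF2L1, a small ER cofactor of chaperones, had values of 514, 405 and 1714 with DMSO, 331, 242 and 798 with JQ1, 546, 384 and 1310.0 with GSK2801 and 312, 233 and 680.3 with both. Both libraries with JQ1 were the lowest of their line in all 3 lines. Its change was -0.82 ± 0.14, adjusted p = 0.00506. CANX (calnexin, the membrane lectin chaperone) went from 46023, 39998 and 77651 with DMSO to 36332, 31030.0 and 57182 with JQ1, and was at 49936, 42909.9 and 74699.9 with GSK2801 and 30812, 30527 and 60999 with both. The fall of CANX was small and even over lines, at -0.38 ± 0.11, adjusted p = 0.0328. PDIA6, a disulfide isomerase, had values of 13704, 7493 and 31656 with DMSO, 9171, 7120.3 and 23572 with JQ1, 13949.5, 7856 and 30696 with GSK2801 and 8078, 6552 and 22477 with both. It passed only with both compounds, against DMSO (-0.48 ± 0.12, adjusted p = 0.0163) and against GSK2801 (-0.50 ± 0.12, adjusted p = 0.0169). DNAJB9 (ERdj4, a cochaperone of BiP) had values of 753, 425 and 318 with DMSO, 933, 598 and 333 with JQ1, 825, 433 and 361 with GSK2801 and 1260.5, 611 and 374 with both. It rose with both compounds against DMSO (0.50 ± 0.15, adjusted p = 0.0293), most in SUM159.

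The main chaperones did not pass with JQ1. HSPA5 (BiP, the main ER chaperone, which also holds the sensors inactive) had values of 23872, 32323 and 127764 with DMSO and 16235, 29429.5 and 115489 with JQ1, with GSK2801 26354, 33802 and 127920.0 and with both 17281, 28424 and 115260.0. It was lower with JQ1 in each line without passing (-0.28 ± 0.13, adjusted p = 0.149). HSP90B1 (GRP94) was lower in each line too, with ratios of -0.82, -0.02 and -0.10 and a mean of -0.31 ± 0.20, adjusted p = 0.277. HSPA5 and HSP90B1 fell with both compounds after quantile normalization (adjusted p = 0.0137 and 0.0218). CALR (calreticulin) had a mean of 0.08 ± 0.14, adjusted p = 0.718, and its sign turned under quantile normalization. EDEM1, which marks misfolded glycoproteins for removal, had values of 5821, 2758 and 7001 with DMSO, 5139, 3690.1 and 5135 with JQ1, 5762, 2683 and 8398 with GSK2801 and 5178, 3431 and 5853 with both. MDAMB231 was higher with JQ1 and the other lines lower, for a mean of -0.07 ± 0.19, adjusted p = 0.82. The other 4, PDIA4, DNAJC3, HERPUD1 and SEL1L, had mean JQ1 changes of -0.18, 0.10, -0.15 and 0.31, none past the threshold.

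With GSK2801 alone, by limma none of the 37 members passed and none had an unadjusted p below 0.05, where 161 of all tested genes (1.13%) did. Mean changes with GSK2801 ran from -0.51 (CHAC1) to 0.51 (ASNS). Single libraries lay further from DMSO. CHAC1 and ATF4 were lower in SUM159, at log2 ratios of -1.87 and -0.58, and ASNS was higher in MDAMB231 and HCC1806, at 0.71 and 0.79. In 3 of 3 lines 14 of the 37 members were higher with GSK2801, beside 19.7% of all tested genes. In the same sense 1 member was lower (ATF5), beside 2504 of the 14232 tested genes. In the combination against DMSO, 9 of the 21 ATF4-branch genes fell and 1 rose, and 4 of the 16 chaperone-branch genes fell and 2 rose, beside 19.8% and 15% of all tested genes. NUPR1 (-4.19), TRIB3 (-2.06), SLC7A11 (-1.94) and ATF4 (-1.48) had the largest falls. Those of SLC7A1, SLC7A11 and TRIB3 passed under every alternative that kept the line block, and TRIB3 passed without it too. Leaving out SUM159, MDAMB231 or HCC1806 kept 8, 9 and 9 of the 16 calls, and 4 passed the test against a 1.5-fold change. Of all tested genes 1632, 1852 and 1488 fell with these lines left out and 403 in the 1.5-fold test, beside 2824. The rises were 1488, 1304, 1178 and 330, beside 2135.

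Libraries with GSK2801 allow the JQ1 comparison to be made a second time, on libraries that the first does not contain. The combination against GSK2801 gave 13 falls and 2 rises among the 37 members, beside 17.2% and 11.8% of all tested genes. All 11 genes called between JQ1 and DMSO were called again in the same direction (100% of the first list and 73.3% of the second). This count was not made over all tested genes, so it is not read as a trait of the members. Both lists come from 1 fit, share its estimate of the spread and use the same lines. Between the combination and JQ1 alone no member passed (limma), nor did any of the tested genes. SLC7A11 was the 1 member with an unadjusted p below 0.05 (-0.70 ± 0.27, adjusted p = 0.625), beside 7.24% of all tested genes. Its 3 ratios of the combination to JQ1 were -0.77, -1.08 and -0.25. ATF4 had ratios of -0.15, -0.98 and -0.24 and a mean of -0.46 ± 0.25, adjusted p = 0.752. For departure from additivity no member passed, and ATF5 alone had an unadjusted p below 0.05 (0.65 ± 0.26, adjusted p = 1), beside 1.2% of all tested genes.

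With JQ1 and with both compounds the branch medians lay furthest apart in MDAMB231. With JQ1 there, the median log2 ratio to DMSO was -0.54 in the ATF4 branch, with 17 of 21 genes lower, and 0.05 in the chaperone branch, with 8 of 16 lower. Both compounds widened this to -0.75 and 0.10. In SUM159 both branches were lower with JQ1, at -0.44 (18 of 21 lower) and -0.30 (12 of 16), and with both compounds at -0.40 and -0.32. In HCC1806 the medians were -0.19 (15 of 21) and -0.10 (11 of 16) with JQ1 and -0.07 and -0.08 with both. All tested genes had medians of -0.12, -0.03 and 0.01 in the 3 lines with JQ1. With GSK2801 the ATF4 branch had medians of -0.07, 0.13 and 0.20 and the chaperone branch 0.09, 0.07 and 0.10, and the gap was smallest in MDAMB231. These medians describe 1 library pair each, with no test of the branches against each other.

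**Figure D3:**
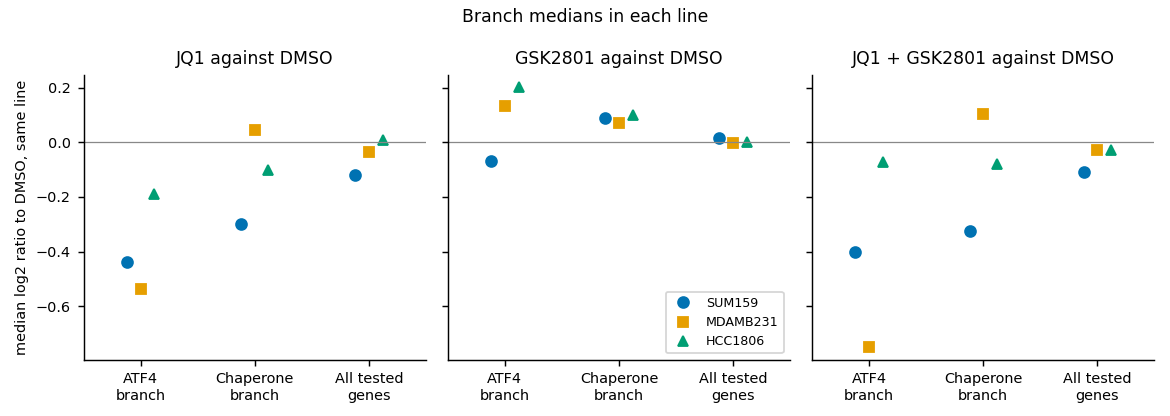
Median log2 ratio to the DMSO library of the same line over the 21 genes of the ATF4 branch, the 16 of the chaperone branch and all 14232 tested genes. Symbols are lines, each point rests on 1 treated and 1 DMSO library, and no error is drawn. In MDAMB231 the ATF4 branch lies at -0.54 with JQ1 and -0.75 with both, while its chaperone branch lies just above 0.

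The JQ1 effect in HCC1806 differed from that in the other lines for 3 of the 6 amino acid enzymes, 1 transporter chain and 1 chaperone-branch gene. Each line's JQ1 effect was taken as the mean of its values without and with GSK2801. Only that of HCC1806 was set against the mean of the other lines, and 4 of the 21 ATF4-branch genes were more positive in HCC1806. They were PHGDH, ASNS, PSAT1 and SLC3A2, beside 14.5% of all tested genes. EDEM1 was the 1 of 16 chaperone-branch genes that was more negative, beside 10.6%. The effects on PHGDH were -1.27, -1.17 and 0.27, a difference of 1.48 ± 0.16, adjusted p = 0.00148. For ASNS they were -0.74, -0.82 and 0.67, a difference of 1.45 ± 0.33, adjusted p = 0.0193. Effects on PSAT1 were -1.07, -0.99 and -0.28 (0.75 ± 0.15, adjusted p = 0.0133), lower in all 3 lines but least so in HCC1806. SLC3A2 had effects of -0.34, 0.08 and 0.31 (0.44 ± 0.10, adjusted p = 0.0207), and EDEM1 of -0.17, 0.39 and -0.48 (-0.59 ± 0.09, adjusted p = 0.00391). ATF4 itself did not pass (0.65 ± 0.31, adjusted p = 0.166), nor did TRIB3 (-0.62 ± 0.30, adjusted p = 0.159) or SLC7A11 (-0.77 ± 0.33, adjusted p = 0.128). The residual of this test is each line's departure from additivity and not the spread between cultures. The calls of ASNS, PSAT1 and SLC3A2 were lost without SUM159 and without the variance trend, and that of EDEM1 without MDAMB231, while PHGDH kept its call in each case.

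**Figure D4:**
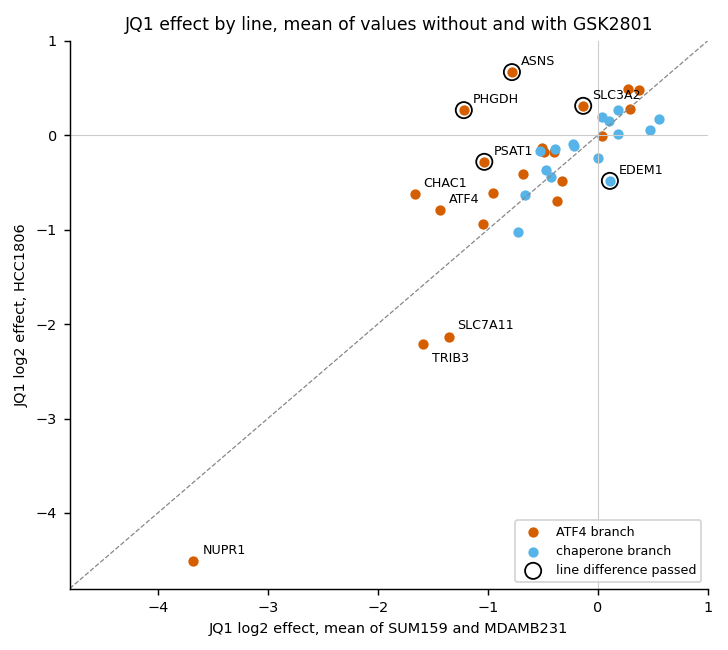
JQ1 effect on each of the 37 members in HCC1806 (vertical, log2) against the mean effect in SUM159 and MDAMB231 (horizontal, log2), both taken as the mean of the values without and with GSK2801. The dashed line marks equal effects and open circles mark genes whose difference passed. PHGDH and ASNS lie above 0 in HCC1806 and below 0 in the other lines.

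Levels per kilobase of exon also differed between lines. SLC7A5 per kilobase ranked 3, 1, 2 and 1 among 28073 genes in HCC1806 with DMSO, JQ1, GSK2801 and both. In MDAMB231 it ranked 255, 125, 178 and 125, and in SUM159 415, 503, 359 and 404. CALR ranked 2, 4, 3 and 4 in HCC1806, HSPA5 5, 9, 8 and 13 and HSP90B1 9, 10, 7 and 15. In SUM159, CALR ranked 32, 46, 32 and 41. SLC3A2, the partner of SLC7A5, ranked 69, 44, 53 and 38 in HCC1806 and 1688, 2237, 1569 and 1884 in SUM159. NUPR1, CHAC1 and ERN1 were among the lowest members in SUM159 and HCC1806. Their DMSO ranks per kilobase were 8220, 9171 and 9493 in SUM159 and 13254, 8817 and 9057 in HCC1806. In MDAMB231 they ranked 12327, 6152 and 8870. ATF4 per kilobase ranked 291, 1064, 523 and 1256 in SUM159 over the same 4 treatments. These ranks use union exon lengths of GENCODE v29 and describe levels, not differences between treatments.

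Further gene lists of the same pathways were counted beside all tested genes, of which 13.1% fell and 9.52% rose with JQ1, and 19.8% and 15% with both compounds. Of 12 cytosolic tRNA synthetases, which charge tRNAs and are known ATF4 targets, 8 fell with JQ1, 8 with both and none rose. The largest falls with JQ1 were MARS (-0.89 ± 0.12, adjusted p = 0.00237), YARS (-0.81 ± 0.15, adjusted p = 0.00613), IARS (-0.72 ± 0.09, adjusted p = 0.00205) and LARS (-0.61 ± 0.10, adjusted p = 0.00442). The median of the 12 was -0.51 with JQ1. Of 18 tested further ATF4 targets (20 listed), 8 fell and 2 rose with JQ1. GDF15, a stress hormone, fell most (-2.12 ± 0.43, adjusted p = 0.00992), then SLC6A9, a glycine transporter (-1.63 ± 0.31, adjusted p = 0.00815), and STC2, a secreted glycoprotein (-1.42 ± 0.33, adjusted p = 0.0169). MTHFD1L, a mitochondrial folate enzyme, followed (-1.39 ± 0.10, adjusted p = 0.000704). The 2 that rose, named after their values were seen, were KLHL24 and ALDH1L2. With both compounds 8 fell and 5 rose (KLHL24, ALDH1L2, SLC1A4, ATF3 and SESN2), with the largest changes in SLC6A9 (-2.02 ± 0.31, adjusted p = 0.00181), KLHL24 (1.91 ± 0.36, adjusted p = 0.00444), GDF15 (-1.69 ± 0.43, adjusted p = 0.0157) and ALDH1L2, of mitochondrial folate metabolism (1.65 ± 0.29, adjusted p = 0.00302).

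Of 12 eIF2 kinases and factors, EIF2B2 (-0.75 ± 0.18, adjusted p = 0.0205) and EIF2S2 (-0.57 ± 0.11, adjusted p = 0.00757) fell with JQ1, and EIF2AK1, the kinase HRI, rose (0.35 ± 0.09, adjusted p = 0.0272). EIF2B2 and EIF2S2 encode subunits of the exchange factor eIF2B and of eIF2 itself. With both compounds EIF2AK2 fell as well (-0.28 ± 0.08, adjusted p = 0.0215), for 3 falls and 1 rise. Of 25 tested further ER folding and degradation genes (26 listed), 4 fell and 3 rose with JQ1, and 5 fell and 3 rose with both. The counts of the eIF2 and the ER folding lists are near the shares of all tested genes (13.1% lower and 9.52% higher with JQ1, 19.8% and 15% with both), so nothing is read from them about these lists. DNAJB11 (ERdj3, a BiP cochaperone) fell by 0.87 ± 0.08 on the log2 scale with JQ1 (adjusted p = 0.00105). OS9, a lectin of ER degradation, rose (0.65 ± 0.16, adjusted p = 0.0179), as did MBTPS1, a protease that cuts ATF6 (0.51 ± 0.10, adjusted p = 0.00768). DNAJC10, an ER reductase, fell with JQ1 too (-0.54 ± 0.15, adjusted p = 0.0329). The other passing genes with JQ1, named after their values were seen, were TXNDC5 and MBTPS2, which fell, and SYVN1, which rose. The median of the 25 was -0.13 with JQ1.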

How the data were processed

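The deposited files gave 1 value per gene symbol and library. Per the submitters' processing notes the authors used STAR 2.4, Salmon 0.60 and the hg38 build. The deposited signal is taken as estimated reads scaled to a common upper quartile (1663.93 of the values above 0). This was checked on the values: 67.1% to 69.2% were whole multiples of 1 read within 0.02, so no count model or counting interval was used. The scaling step, filters and annotation are not given in the sources used here. The labels name 2 library kits, so it is unclear whether strand was kept. Besides ATF5 and DDIT3, further members share exon bases with genes on the other strand. Among them are PDIA6 with ATP6V1C2 (1033 bases), SLC7A11 with SLC7A11-AS1 (865), SHMT2 with AC137834.2 (427) and MTHFD2 with SLC4A5 (1324). CEBPB, CANX, DNAJB9 and EDEM1 have such overlaps too, and the list is not complete. On the same strand, ASNS shares 1985 exon bases with AC079781.5, a gene without a value here, and keeping strand would not separate them. Of 28539 entries, 27 with date-like symbols (0.168% to 0.218% of the signal) were left out.

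The log2 of each value plus 1 was fitted in limma 3.58.1 (R 4.3.3), with a variance trend and the line as a block, over 14232 genes with a mean of at least 10. P-values were adjusted by Benjamini-Hochberg within a contrast, with a threshold of 0.05. Changes are means of log2 differences over 3 lines ± the standard error, and on this scale they understate changes of low genes. Since a line's JQ1 effect enters its library with JQ1 and that with both compounds, p-values may be too small. The spread is pooled over the 4 treatments. For GSK2801 against DMSO and for departure from additivity, limma gave 1.13% and 1.2% of tested genes an unadjusted p below 0.05. These shares are lower than that threshold gives without any effect. P-values of those 2 contrasts may thus be too large, and not passing there does not show that a member was unchanged. Same-numbered libraries come from the same line, and their deviations from group means correlated at 0.872 to 0.972, against -0.58 to -0.31 between lines. The comparison of HCC1806 used a model with separate JQ1 and GSK2801 effects per line. The fits were tested on simulated data. Alternatives were another pseudocount, other filters on low values, TMM and quantile rescaling, only the libraries compared, no block, no variance trend, a 1.5-fold threshold and leaving out each line.

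The members and lists were chosen with earlier results of these data known. All 37 members are accounted for. Values in every library are given for members that passed in any contrast and for the 3 with the widest JQ1 range over lines. Other lists give values for at most 4 passing genes per contrast, and those named beyond these were chosen after their values were seen. Positions and exon lengths are from GENCODE v29, whose symbols covered 98.6% of tested genes, and promoters from RefSeq (GRCh38.p14).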

Additional observations from a re-analysis of the deposited data

Results flagged for a closer look

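A total of 5 members had a JQ1 effect in HCC1806 that differed from the mean effect in SUM159 and MDAMB231 in the test of that difference. In that test 14.5% of all tested genes were more positive in HCC1806 and 10.6% more negative. The count is therefore not read as particular to the members. On the log2 scale the difference, HCC1806 minus the mean of the others, was 1.48 for PHGDH and 1.45 for ASNS, whose effects had opposite signs in HCC1806 and in both other lines. It was 0.75 for PSAT1, 0.44 for SLC3A2 and -0.59 for EDEM1. Medium and JQ1 dose differ along with the line and cannot be told apart from it.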

How the results depend on the processing

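Alternatives kept the direction of every call in the 6 contrasts and the line comparison, and changed how many members passed. With the line as a replicate block left out, 0 members passed with JQ1 (7 ATF4-branch falls, 3 chaperone-branch falls and 1 rise with it), 0 in the combination against GSK2801, and 1 (TRIB3) in the combination against DMSO. Of all tested genes that fit called 0 with JQ1. In the combination it called 2 higher and 1 lower against GSK2801, and 19 higher and 22 lower against DMSO. The test against a 1.5-fold change left 0 calls with JQ1 and 1 line difference (PHGDH) with 0 falls. In the combination it left 4 ATF4-branch falls against DMSO and 4 against GSK2801, with 0 in the chaperone branch and 0 rises. Of all tested genes it called 65 higher and 55 lower with JQ1. In the combination these counts were 330 and 403 against DMSO and 177 and 239 against GSK2801. Using only the libraries compared left 4, 5 and 4 ATF4-branch falls with JQ1, in the combination against DMSO and against GSK2801, and 0 other calls. Of all tested genes 408, 515 and 146 fell and 347, 497 and 154 rose in these 3 comparisons. TMM rescaling lost PSAT1, SHMT2 and CANX with JQ1 (5 ATF4-branch and 2 chaperone-branch falls left), quantile normalization lost SHMT2, and PSAT1 was lost without the filter. Without a variance trend PSAT1 and SHMT2 were lost. Without a variance trend, or without the low-value filter, the ERN1 rises with JQ1 and against GSK2801 went to 0. Without the trend the ATF5 rise also went to 0, and 1 ATF4-branch line difference remained. TMM rescaling gave 4 chaperone-branch genes more negative in HCC1806, and quantile normalization gave 2, with 1 more positive, and 2 chaperone-branch rises against GSK2801.

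Leaving out each line in turn gave 1 to 7 ATF4-branch falls, 0 to 2 chaperone-branch falls and 0 rises with JQ1. In the combination against DMSO it gave 7 and 1 to 3 falls and 0 to 2 rises in each branch, and against GSK2801 5 to 7 and 1 to 3 falls and 0 to 1 rise in each. For the line comparison, which needs HCC1806, it gave 4 to 5 ATF4-branch rises and 0 to 1 falls, and 0 to 2 chaperone-branch falls and 0 to 1 rises. With a line left out these fits rest on 2 lines. Calls over all tested genes dropped as well. Falls with JQ1 went from 1868 to 865, 921 and 227 without SUM159, MDAMB231 and HCC1806. In the combination they went from 2824 to 1632, 1852 and 1488 against DMSO. Against GSK2801 they went from 2448 to 1254, 1546 and 914.

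The share of calls that were lower over all genes was 58% with JQ1 as deposited, 46.3% after TMM and 45.9% after quantile normalization, and 59.2%, 50% and 47.5% in the combination against GSK2801. The GSK2801 median of the chaperone branch moved to 0.0727 and 0.0542 (TMM, quantile) in SUM159, 0.0941 and 0.0411 in MDAMB231 and 0.0305 (quantile) in HCC1806. The NUPR1 line difference, -0.84 and not passed, reversed to 1.16 (adjusted p = 0.00992) with a pseudocount of 10 and was -2.41 (adjusted p = 0.0262) and 0.74 with SUM159 or MDAMB231 left out, so that it passed in opposite directions under 2 alternatives. Values that did not pass changed sign in 90 of 604 cases when a line was left out and in 24 of 1840 under the other alternatives. The cause of these differences was not tested.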
